A study of Mus musculus with 8 samples.

Results

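The leader of an mRNA, its stretch from the cap to the start codon, was at least 600 bases long in 586 of the 10227 genes with an RPKM of at least 1 in all 4 RNA-seq libraries of mouse inguinal white adipose tissue (5.73%). These long-leader genes were chosen by the coding start that the deposited tables give for 1 transcript per gene and by the measured RNA-seq level. The other 9641 genes, with leaders under 600 bases and the same RNA-seq minimum, were used for comparison. Before the RNA-seq minimum, 1087 of 16674 genes had such a leader, of which 53.9% were kept.

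The samples were inguinal white adipose tissue of male C57BL/6 mice, 9 weeks old and exposed to cold. Y1CTL mice were Ythdf1 flox/flox, and Y1cKO mice were Ythdf1 flox/flox with Adipoq-Cre in addition, so that the floxed exon was to be deleted in cells that express adiponectin, the adipocytes, and not in the other cells of the tissue. Each genotype had 2 RNA-seq libraries, made from polyadenylated RNA, and 2 Ribo-seq libraries, made from ribosome-protected fragments. The sources used here did not state that the replicates were separate animals, so that the p-values rest on a spread that may be technical. Per the labels both assays drew on 1 tissue lysate, so the RNA-seq and the Ribo-seq library of a number were set together as a library pair. The data do not bear the numbers out, and lymphocyte and muscle markers, given below, differ between the assays under either numbering. Deviations from the group mean correlated at -0.14 in Y1CTL and -0.24 in Y1cKO within these pairs, and the headers inside the Y1cKO RNA-seq files are numbered the other way round. A TE per pair and its SD rest on the numbers, whereas a mean TE does not.

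A scanning ribosome enters an mRNA at the cap and reads through the leader before it reaches the start codon. Leaders hold upstream open reading frames, folded structures and binding sites for proteins, through which translation of the coding sequence can be lowered or made dependent on stress or growth signals. Genes of growth factors, receptors, kinases and transcription factors are known for long leaders, whereas ribosomal and respiratory chain proteins are usually encoded by mRNAs with short ones. YTHDF1, the protein targeted here, binds N6-methyladenosine (m6A) in mRNA and is known to promote translation of its targets.

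RNA-seq libraries held 3958284 to 16429015 reads and Ribo-seq libraries 7364523 to 11862838. Both Y1CTL RNA-seq libraries were shallower than both Y1cKO ones. Ythdf1 itself, with a leader of 239 bases, was at 8.01 and 11.5 RPKM in the Y1CTL and at 7.17 and 7.98 RPKM in the Y1cKO RNA-seq libraries. The groups did not overlap, but the lower Y1CTL value was close to the higher Y1cKO value. In Ribo-seq it was at 17.3 and 16 RPKM in Y1CTL and at 12.7 and 15.7 RPKM in Y1cKO. These whole-gene values do not show the deleted exon by itself. Median RPKM of the adipocyte markers was 359.9 to 810.9 in RNA-seq. Beige and brown adipocyte markers (6 genes) had RNA-seq medians of 189.5 and 380.8 RPKM in Y1CTL and 34.5 and 201.2 RPKM in Y1cKO. Their Ribo-seq medians were 1730 and 696.9 RPKM in Y1CTL and 1924 and 1522 RPKM in Y1cKO. Fibroblast markers (4 genes) had RNA-seq medians of 93.4 and 65.7 RPKM in Y1CTL and 315.4 and 108.6 RPKM in Y1cKO, higher in both Y1cKO libraries. In Ribo-seq the genotypes overlapped, at 331.9 and 442.3 RPKM in Y1CTL and 249.7 and 665.7 RPKM in Y1cKO. The part of these cell types in the TE changes was not tested. T cell markers (9 genes found) were at a median of 13.8 RPKM in replicate 2 of Y1CTL RNA-seq, at 0.162 to 0.24 RPKM in the remaining RNA-seq libraries and at 51.5 to 57.8 RPKM in all 4 Ribo-seq libraries. B cell and lymph node markers (9 genes) had a median of 31.3 RPKM in the same replicate and of 0 to 0.128 RPKM in the remaining RNA-seq libraries, against 109.2 to 129.1 RPKM in Ribo-seq. Skeletal muscle markers had a median of 19.2 RPKM in Y1cKO RNA-seq replicate 1 and of at most 0.428 RPKM in each of the other libraries. A TE may therefore set footprints against RNA from tissue of another make-up, whichever way the numbers are paired. Whether both assays drew on like tissue was not tested. Of all marker genes, Pecam1 of endothelium was the 1 with a long leader. In whole tissue, fewer cells of a type and less RNA per cell cannot be told apart.

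Long-leader genes carried fewer ribosome-protected fragments per RNA than genes with shorter leaders, in each of the 4 library pairs. Translational efficiency (TE) is given here as log2 of Ribo-seq over RNA-seq, each as RPKM + 0.5, where RPKM is reads scaled to library size and to length, the coding length in Ribo-seq and the whole transcript in RNA-seq. In the Y1CTL pairs the median log2 TE was 0.31 and 0.41 for long-leader genes and 1.00 and 0.99 for the others. In the Y1cKO pairs it was -0.01 and 0.25 for long-leader genes and 0.73 and 0.89 for the others. The difference was thus -0.69, -0.58, -0.75 and -0.63 in the 4 pairs, lower for long leaders in 4 of 4. With the numbers crossed within each genotype it was -0.58, -0.70, -0.70 and -0.72. From the means of the libraries it was -0.65, a TE of 0.636 times that of the other genes.

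The lower TE came with lower Ribo-seq values. RNA-seq values were lower too, by a smaller factor, which by itself raises TE. Median Ribo-seq RPKM of the long-leader genes was 8.53 to 9.41 per library, against 15.9 to 16.5 for the others, a ratio of 0.538 to 0.58. Median RNA-seq RPKM, which the choice of genes had used, was 6.56 to 7.83 against 8.04 to 9.55, a ratio of 0.811 to 0.824. Neither pair of ranges overlapped.

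The genes did not form a uniform class. The middle 50% of long-leader genes had a log2 TE of -0.64 to 1.32, a width of 1.97, and the middle 50% of the others one of -0.03 to 1.79, a width of 1.81. Of the long-leader genes 392 (66.9%) were below the median of the others. A log2 TE below -2 was found for 35 (5.97%) of the long-leader genes and 243 (2.52%) of the others, but genes with no Ribo-seq read at all fall there by the constant of 0.5. Without them the low tail held 21 of 572 long-leader genes (3.67%) and 193 of 9587 others (2.01%). Above 3 were 38 (6.48%) and 521 (5.4%). The order of genes was similar between the pairs of a genotype, with Pearson's r of TE across the long-leader genes of 0.9 in Y1CTL and 0.96 in Y1cKO, a description in which genes are not independent replicates and the libraries were normalized together.

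TE was lower in classes of longer leaders up to 1500 bases and not beyond. Median log2 TE, from the means of the libraries, was 1.11 for leaders under 100 bases (2998 genes), 0.99 for 100 to under 200 bases, 0.79 for 200 to under 400 bases and 0.42 for 400 to under 600 bases. Within the long-leader genes it was 0.28 at 600 to under 800 bases (313 genes), 0.33 at 800 to under 1000 bases (126 genes) and -0.26 at 1000 to under 1500 bases (107 genes). The 40 genes with leaders of 1500 to 8962 bases had a median of 1.15, above the other 7 classes in the mean of the libraries, and the middle 50% of them ran from -0.45 to 3.05. All 4 library pairs gave the last class a higher median than the class before it, 1.03 to 1.38 against -0.42 to 0.01. The coding sequences of this last class had a median length of 931.5 bases, the shortest of the 8 classes, against 1572 bases in the class before it. Its transcripts had the longest median of the 8 classes, 4447.5 bases against 4092, and its RNA-seq median was the lowest, 5.57 RPKM. Ribo-seq RPKM is scaled to the coding length and RNA-seq RPKM to the transcript length, and the part of these lengths in the higher TE was not tested.

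**Figure D1:**
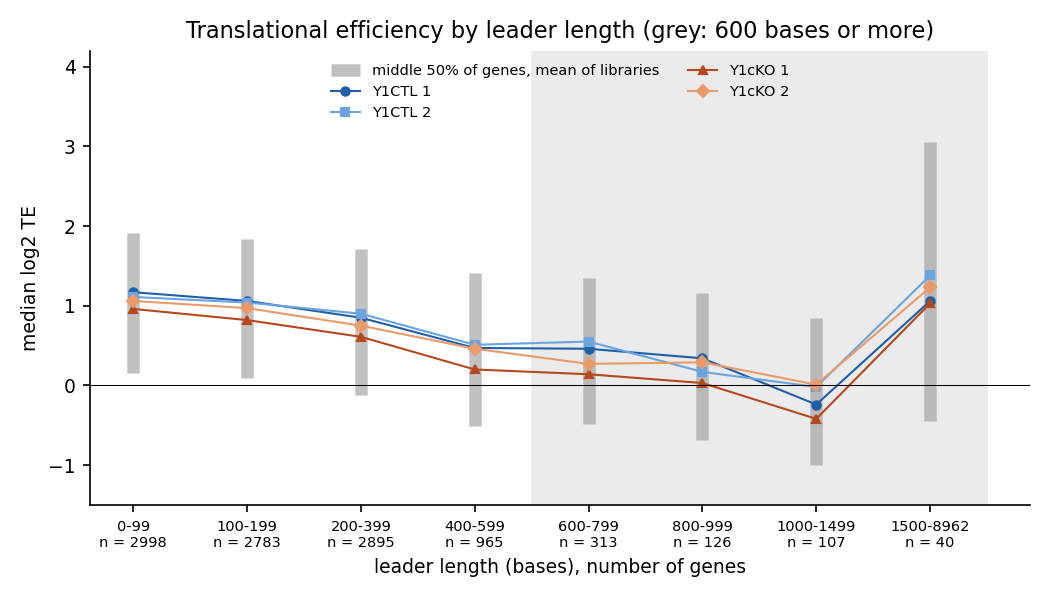
Median log2 TE (vertical axis) in 8 classes of leader length in bases (horizontal axis, with the number of genes), with a line for each of the 4 library pairs and bars for the middle 50% of genes in the mean of the libraries. Medians went down from 1.11 to -0.26 across the first 7 classes, apart from a step from 0.28 to 0.33 between the fifth and sixth, and stood at 1.15 in the class of 1500 bases or more.

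Other lengths went with the leader, and TE differed with them too. Long-leader genes had coding sequences with a median of 1527 bases against 1389, a median of 1287.5 bases after the coding end against 972, and transcripts with a median of 4099.5 bases against 2960. The leader took up a median of 20.6% of the transcript, and 5.35% in the other genes. Across the long-leader genes Spearman's rho of log2 TE was -0.43 with the coding length and -0.07 with the leader length, values given as a description, since Ribo-seq RPKM was divided by the coding length and RNA-seq RPKM by a length that holds the leader. When all 10227 genes were divided into 4 equal groups by coding length, long-leader genes had the lower median TE in each group, by 0.25, 0.68, 0.45 and 0.35 from the shortest to the longest coding sequences. In such groups of the length after the coding end the difference was -0.20 to -0.70, and in groups of the RNA-seq mean, a measure that the choice of genes had used, -0.32 to -0.83. Every library pair gave a negative difference in all 12 groups.

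**Figure D2:**
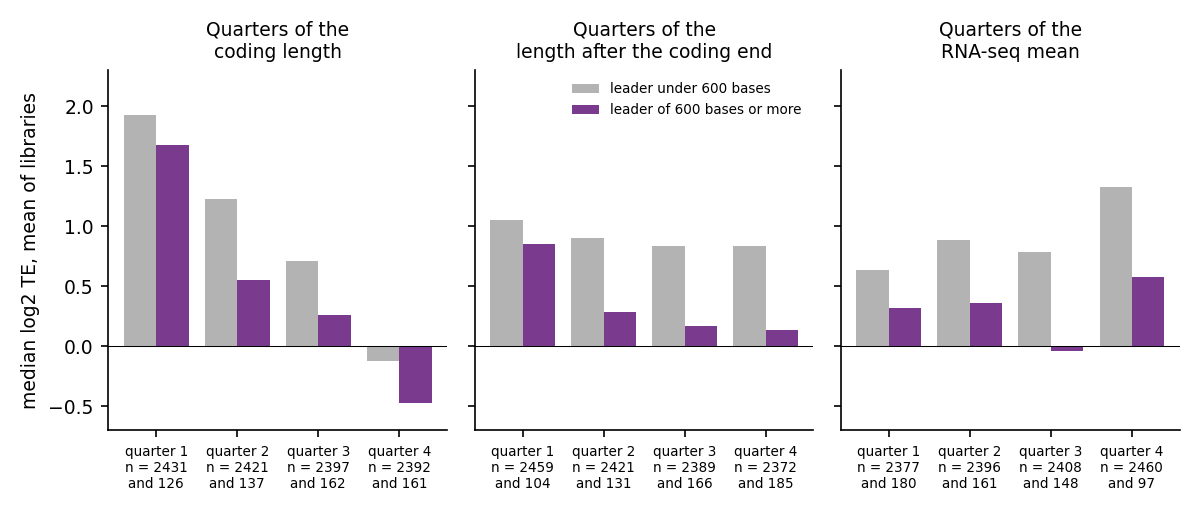
Median log2 TE in the mean of the libraries (vertical axis) of genes with leaders under 600 bases (grey) and of 600 bases or more (purple), in 4 equal groups of coding length, of the length after the coding end and of the RNA-seq mean, with the number of genes of each kind under the bars. The purple bar is lower in all 12 pairs, by 0.20 to 0.83.

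Leaders of 1000 bases or more had their highest median TE with the shortest coding sequences. In each group of coding length that median was below the one of leaders under 600 bases. The class of the longest leaders, described above for its high median, was pooled here with the class before it. Where the high values of the longest leaders sat was therefore not tested. Among genes with coding sequences of 111 to 867 bases, median log2 TE was 1.93 with leaders under 600 bases, 1.84 with 600 to under 1000 bases (87 genes) and 1.35 with 1000 bases or more (39 genes). Among genes with coding sequences of 870 to 1395 bases it was 1.23, 0.58 (105 genes) and -0.16 (32 genes). Among the longest coding sequences, of 2259 bases or more, it was -0.12, -0.47 and -0.50. The values of leaders of 600 to under 1000 bases lay between the others in all 4 groups, the third of which had medians of 0.71, 0.27 and 0.05.

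Whether reads of neighbouring or overlapping genes entered the values cannot be seen from the tables. Of the 583 long-leader genes found in the RefSeq gene table, 264 (45.3%) overlapped another protein-coding or long non-coding gene on either strand, against 3510 of 9613 (36.5%) of the others. Among genes that overlapped none, TE of long-leader genes was lower by 0.75, a larger difference than the 0.65 over all genes. More than 1 RefSeq coding transcript was listed for 75% of the long-leader genes and 73.2% of the others, so that for most genes the 1 transcript tabulated was a choice among several.

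The lowest TE among genes with Ribo-seq reads in all 4 libraries was that of Slc35a4, a member of the family of nucleotide sugar transporters, whose mRNA is known for an upstream open reading frame that is translated into a protein of its own. With a leader of 1099 bases, Slc35a4 was at 27.2 and 27.0 RPKM in the Y1CTL and 27.7 and 21.8 RPKM in the Y1cKO RNA-seq libraries. Ribo-seq gave 2.43 and 1.82 RPKM in Y1CTL and 0.973 and 1.14 RPKM in Y1cKO. The log2 TE was -3.71 ± 0.42 (SD, n = 4 library pairs). Its RNA was thus above the median gene in every library and its Ribo-seq values below it.

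The next genes were BC005537, Zfhx3, Ppp1r16a, Gpr4 and Zfp532. BC005537, with a leader of 1724 bases, had RNA-seq values of 25.4, 24.5, 29.3 and 25.6 RPKM and Ribo-seq values of 3.68, 4.15, 2.60 and 2.90 RPKM, in the order Y1CTL 1 and 2, Y1cKO 1 and 2 that is kept from here on. Its log2 TE was -2.82 ± 0.37 (SD, n = 4 library pairs). Zfhx3, a large homeodomain and zinc finger transcription factor, had RNA-seq values of 7.19, 5.94, 10.2 and 10.6 RPKM and Ribo-seq values of 0.83 to 1.20 RPKM. Its leader was 1452 bases long and its coding sequence 11169 bases, and its log2 TE was -2.60 ± 0.50. Ppp1r16a, a regulatory subunit of protein phosphatase 1, was at -2.54, Gpr4, a proton-sensing receptor, at -2.31 and Zfp532, a zinc finger protein, at -2.28. Ribo-seq stayed under RNA-seq in every library pair for all 6 genes.

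Long-leader genes with the highest TE had short coding sequences. Sf3b5, a small subunit of the splicing factor SF3B, had a leader of 3280 bases and a coding sequence of 258 bases. Its RNA-seq values were 3.49, 2.31, 2.75 and 2.98 RPKM and its Ribo-seq values 150.3, 157.4, 161.4 and 144.1 RPKM, a log2 TE of 5.52 ± 0.26 (SD, n = 4 library pairs). Hypk, which binds huntingtin and the N-terminal acetyltransferase complex, had a leader of 3514 bases, a coding sequence of 387 bases and a log2 TE of 4.83 ± 0.22. Ndufb1-ps, listed with a coding sequence of 171 bases, was at 5.16 ± 0.15, Tmem167, a small membrane protein of the secretory pathway, at 4.91 ± 0.40 and Etfrf1, a regulator of the electron transfer flavoprotein, at 4.42 ± 0.55. H1f3, a linker histone, was at 5.49 ± 0.91, from RNA-seq values of 1.26 to 4.83 RPKM. How fully libraries of polyadenylated RNA hold the mRNA of this histone was not tested, so its TE is uncertain. RNA-seq RPKM was divided by the whole tabulated transcript and Ribo-seq RPKM by the coding sequence, so these TE values depend on both lengths. The transcripts were 3841 bases long for Sf3b5, 4170 for Hypk, 7425 for H1f3 and 8689 for Tmem167. Those of Etfrf1 and Ndufb1-ps were shorter, at 2436 and 861 bases. The part of these lengths in the high TE was not tested. Of the 12 genes named for low and high TE, Slc35a4, Zfhx3 and Etfrf1 overlap at least 1 other gene in the RefSeq table.

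**Figure D3:**
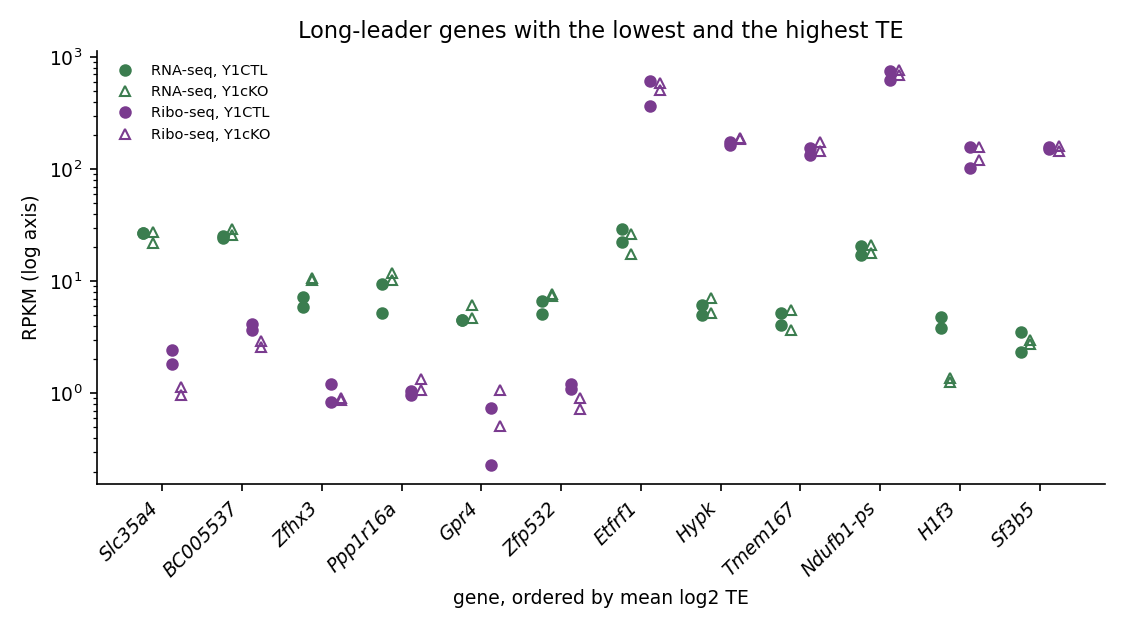
RPKM on a log axis (vertical) of the 6 long-leader genes with the lowest and the 6 with the highest log2 TE (horizontal, in that order), among those with Ribo-seq reads in all 4 libraries, with 1 point per library. Ribo-seq lies below RNA-seq in every library of the first 6 genes, from Slc35a4 at -3.71 to Zfp532 at -2.28, and above it in the last 6, from Etfrf1 at 4.42 to Sf3b5 at 5.52.

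The 38 genes above a log2 TE of 3 had a median coding length of 546 bases. They held the ribosomal proteins Rpl18 (3.54) and Rpl36al (3.67), the complex I subunit Ndufa13 (3.51), the ATP synthase subunit Atp5d (3.31) and the histone variant H3f3b (3.60). They also held genes of myeloid cells, namely Spi1 (3.85), the transcription factor PU.1, the lectin Clec10a (3.8) and the sialic acid receptor Siglec1 (3.07), beside Igf1 (3.02), the growth factor, and Lum (3.72), a proteoglycan of the matrix. Spi1 was at 1.74, 5.94, 3.30 and 1.98 RPKM in RNA-seq and at 46.8 to 51.3 RPKM in Ribo-seq. Macrophage markers, of which none had a long leader, had a median of 8.52 to 10.9 RPKM in RNA-seq and 94.7 to 154.5 RPKM in Ribo-seq, and their part in these values was not tested. These genes were named after their values were seen. Ribosomal protein and histone genes have near-identical copies elsewhere in the genome, and Rpl18, Ndufa13, Atp5d and Igf1 overlap another gene, so that their values are uncertain.

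Of the 6 longest leaders, 3 stood at a TE above 3, and 1 had no Ribo-seq value to read a TE from. Tmbim1, a membrane protein of the BAX inhibitor family, had the longest, 8962 of 11011 transcript bases, before a coding sequence of 927 bases. Its RNA-seq values were 8.37, 4.50, 9.24 and 8.86 RPKM and its Ribo-seq values 67.0, 69.1, 81.8 and 71.3 RPKM, a log2 TE of 3.19 ± 0.41 (SD, n = 4 library pairs). Tmbim1 overlaps Pnkd. Hypk and Sf3b5 are given above. 2410002F23Rik, with a leader of 2561 bases, was at -0.12 ± 0.31. Rap2b, a small GTPase, with a leader of 3419 bases, had Ribo-seq values of 0.461 and 0.247 RPKM in Y1CTL and no read in Y1cKO, where a count of 0 allows up to 3 reads. Olfr1173, an olfactory receptor, was absent from all 4 Ribo-seq tables.

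Some long-leader genes had RNA without any counted footprint. Of the 586 genes 18 (3.07%) had no read in at least 1 Ribo-seq library, against 93 (0.965%) of the others, and 14 of them had none in any. All 10 olfactory and vomeronasal receptors with long leaders were among the 14, as were 25 of the 26 receptors with shorter leaders among the 54 such genes of the comparison. The highest of them in RNA-seq was Olfr1385, at 28.8, 19.7, 24.3 and 20.8 RPKM. The remaining 4 were Ctnnd1, which encodes p120 catenin of cell junctions, Ptp4a1, a phosphatase, Insyn1 and Igip. Ctnnd1 was at 9.73, 5.26, 5.47 and 4.45 RPKM in RNA-seq over a coding sequence of 2901 bases and was absent from every Ribo-seq table. No TE is read from these 14 genes. Without the genes that lacked reads in at least 1 Ribo-seq library the difference between long and shorter leaders was -0.63.

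Olfactory receptors were also the family with the highest share of long leaders, 9 of 30 genes (30.0%). Zinc finger genes with the symbol Zfp gave 19 of 244 (7.79%), and 18 of these 19 had a TE below the median of the shorter-leader genes, with a median of -0.14 against -0.33 for the other Zfp genes. Solute carriers gave 13 of 159, with a median log2 TE of 0.36 against 0.88 for the other Slc genes. The MAP kinase symbols gave 4 of 36, at a median of -1.02 against 0.26. Long leaders were listed for 4 of 83 cytosolic ribosomal proteins (4.82%), 2 of 47 Nduf genes (4.26%), 1 of 45 proteasome genes (2.22%) and 0 of 78 mitochondrial ribosomal proteins, beside the 5.73% of all genes. The 4 ribosomal proteins stood at a median of 2.97, above the 1.68 of the family's other genes.

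The most abundant long-leader mRNA was that of Fth1, the heavy chain of ferritin, whose leader is known for the iron-responsive element that controls its translation. Fth1, with a leader of 795 bases in the tables, was at 575.4, 527.5, 801.5 and 855.7 RPKM in RNA-seq and at 1193, 1310, 1525 and 1383 RPKM in Ribo-seq, a log2 TE of 1.00 ± 0.26 (SD, n = 4 library pairs). Chchd10, a mitochondrial intermembrane protein, followed with a log2 TE of 1.57 ± 0.84 and Ribo-seq values of 1364, 682.9, 1282 and 932.2 RPKM that were far apart within Y1CTL. Ppp2r5a, a regulatory subunit of protein phosphatase 2A, was at 261.4 to 343.1 RPKM in RNA-seq and 343.9 to 391.5 RPKM in Ribo-seq, with a log2 TE of 0.22 ± 0.13. Ly6e, a GPI-anchored surface protein, was at 117.7 to 166.6 RPKM in RNA-seq and 1500 to 1556 RPKM in Ribo-seq. The fifth was Scd2, a stearoyl-CoA desaturase, at 0.87 ± 0.56. Abundant long-leader mRNAs thus had TE values on either side of the 0.91 of shorter-leader genes.

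Genes with textbook long or regulated leaders (28 at the RNA-seq minimum) gave 8 long-leader genes, of which 7 were below the median TE of the shorter-leader genes. The median of the 8 was 0.13 and that of the other 20 was 0.31. Ppp1r15a and Ppp1r15b, which bring protein phosphatase 1 to eIF2α and have upstream open reading frames, were at -1.56 ± 0.54 and -0.59 ± 0.07 (SD, n = 4 library pairs). Pdgfb, a growth factor, was at -1.31 and Xiap, an inhibitor of caspases, at -0.09. Bcl2, the apoptosis inhibitor, was the 1 of the 8 above that median, at 1.57 ± 0.46.

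Signaling genes of the BMP and TGF-beta family had the largest share of long leaders among the lists, 8 of 24 (33.3%), and 6 of the 8 were below the median TE of shorter-leader genes. Their median log2 TE was -0.51 against 0.59 for the other genes of the list. Bmp6, a ligand, was at 7.45, 4.37, 9.03 and 8 RPKM in RNA-seq and at 1.27, 0.976, 0.893 and 1.81 RPKM in Ribo-seq, a log2 TE of -2.14 ± 0.46 (SD, n = 4 library pairs). The receptors Acvr1 and Acvr2a were the highest, at 1.13 and 0.96, and the type II receptor Bmpr2 was at -0.40 ± 0.22. Tgfb1, a ligand, was at 0.36 ± 0.50, and Ltbp3, which binds latent TGF-beta in the matrix, at -0.62 ± 0.51. The inhibitory Smads, Smad6 and Smad7, were at -1.4 ± 0.52 and -0.94 ± 0.50. The ligands and inhibitors lay lower than Acvr1 and Acvr2a in the mean, but Tgfb1 ran from -0.20 to 1.02 over the pairs, which reaches above the 0.96 of Acvr2a. Acvr1 and Acvr2a did not differ beyond their spread between pairs, nor did Bmpr2 and Ltbp3, and 5 of the 8 genes (Bmp6, Acvr1, Acvr2a, Ltbp3 and Smad7) overlap another gene.

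Insulin signaling gave 5 long-leader genes of 34. Their median log2 TE was 0.49, above the 0.15 of the other genes of the list. Irs1, the docking protein of the insulin receptor, was at 21.8, 10.6, 25.3 and 24.7 RPKM in RNA-seq and at 10.8, 12.6, 12.2 and 11.3 RPKM in Ribo-seq, a log2 TE of -0.71 ± 0.64 (SD, n = 4 library pairs). Its RNA-seq value in Y1CTL replicate 2 was the low one, and its Ribo-seq values were close together. Pik3r1, the regulatory subunit of PI 3-kinase, was at 0.60 ± 0.95, Rptor, the scaffold of mTORC1, at -0.05 ± 0.21 and Tbc1d1, a Rab GTPase-activating protein of glucose transport, at 0.95 ± 0.68.

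Of the transcription factors of adipocytes, 3 of 32 had long leaders, and all 3 were below the median TE of shorter-leader genes. The median of the 3 was -0.11, against 0.30 for the other genes of the list. Ebf1 and Ebf2, early B cell factors that act in the adipocyte lineage, were at -0.11 ± 0.30 and 0.05 ± 0.53 (SD, n = 4 library pairs), and Tle3, a corepressor, at -0.38 ± 0.42. Chromatin regulators gave 5 of 59, all with a low TE. These were the acetyltransferases Crebbp (-1.39 ± 0.05) and Ep300 (-0.82 ± 0.30), the deacetylase Hdac5 (-1.64 ± 0.24), the acetyl-lysine reader Brd2 (-1.12 ± 0.32) and the methyltransferase Setd1a (-2.11 ± 0.26). The other genes of that list were low as well, with a median of -0.91. Ubiquitin ligases gave 5 of 45, from Fbxw7 at -1.59 ± 0.42 to Peli1 at 1.16 ± 0.47. Of 18 m6A readers, writers and erasers, Ythdc2 alone had a long leader, with a TE of 0.50 ± 0.24. None of 17 clock genes and none of 19 thermogenic genes did.

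**Figure D4:**
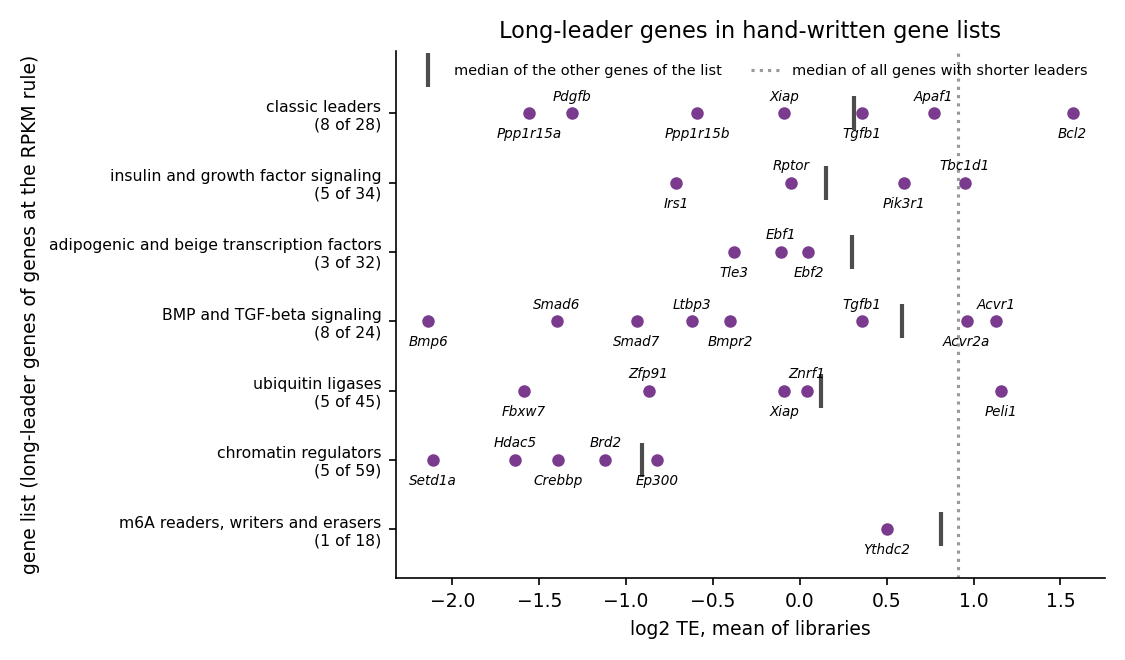
Log2 TE in the mean of the libraries (horizontal axis) of long-leader genes in 7 hand-written lists (vertical axis, with the number of long-leader genes of all list genes at the RNA-seq minimum; the points shown are those named). Grey ticks mark the median of the other genes of the list and the dotted line the 0.91 of all shorter-leader genes; most points lie left of that line, down to Bmp6 at -2.14.

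The first genes inside the limit, each with a leader of 600 bases, were Xpo6, a nuclear exporter, at a log2 TE of -1.11, Mbnl1, a splicing regulator, at 0.75 and Cnppd1 at 1.73. The nearest outside were Fryl at -1.08, 1 base below the limit, Pex26, a peroxisomal protein, at 1.15 with 598 bases and Sigirr at 0.49 with 597 bases.

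The genotypes were then compared, to see whether loss of YTHDF1 in adipocytes went with another TE change in long-leader genes than in the others. The difference between both kinds of gene was within the spread between pairings. From limma's interaction of assay and genotype, the median log2 TE change, Y1cKO minus Y1CTL, was -0.21 over the 561 long-leader genes tested, -0.18 over 9495 genes with shorter leaders and -0.17 over all 11792 genes tested. Each Y1cKO library pair was also set against each Y1CTL pair, which gives 4 pairings that share libraries, and there the median of long-leader genes minus that of the others was -0.05, -0.11, 0.05 and -0.04. It took both signs. With 2 replicates per genotype an exact two-sided p cannot be below 0.333, so no test of this difference was made.

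No single gene passed. Benjamini-Hochberg adjusted p from limma was at least 0.563 for TE, and the same was true over all genes (0% called). At an unadjusted p under 0.05, 5 long-leader genes had a higher TE in Y1cKO (0.891%) and 42 a lower one (7.49%), against 1.53% higher and 7.12% lower over all genes tested. The shares were thus near the background. The lower median over all genes came with the RNA-seq values, whose median change was 0.17 over all genes and 0.18 over long-leader genes, while the median Ribo-seq change was 0.01 and -0.01. After scaling that set all libraries of an assay to 1 median, TE had a median change of -0.05 for long-leader genes and -0.02 for all genes. The calls among long-leader genes were then 11 higher and 17 lower (4.99%, against 6.28% of all genes tested). Without Y1CTL replicate 1, which left 1 Y1CTL replicate assumed to vary like the Y1cKO replicates, 153 long-leader genes had an unadjusted p under 0.05 (27.3%, and 27.3% of all genes tested), and 37 passed the adjusted p from limma (6.61%, against 8.14% of all genes tested). Without Y1cKO replicate 1 there were 6 (1.07%, against 1.5%), without Y1cKO replicate 2 there were 16 (2.85%, against 3.41%), and with the replicate block 21 (3.74%, against 5.05%). Voom on the recovered reads gave 44 (7.84%, against 8.6%), and none passed its adjusted p.

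**Figure D5:**
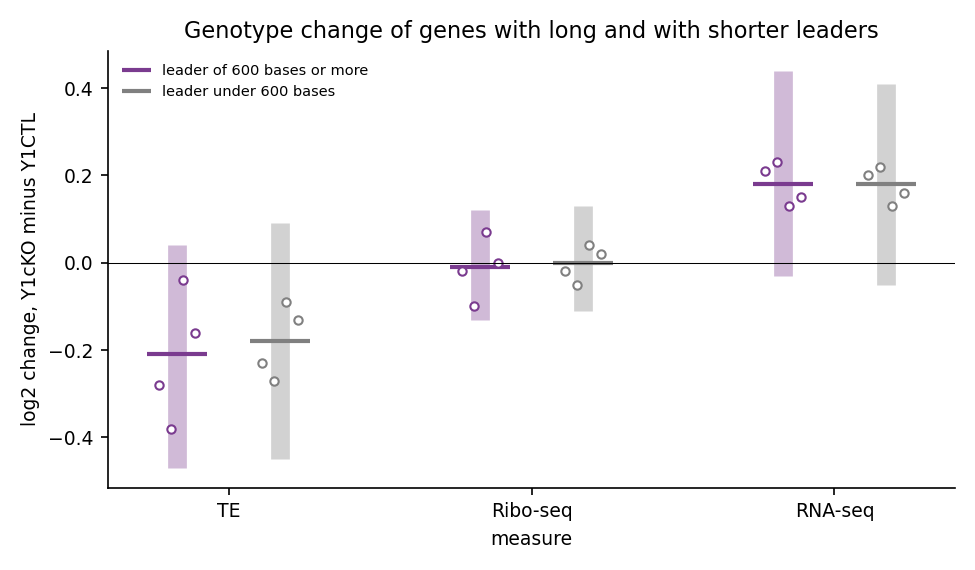
Log2 change, Y1cKO minus Y1CTL (vertical axis), of TE, Ribo-seq and RNA-seq (horizontal axis) for genes with leaders of 600 bases or more (purple) and under 600 bases (grey). Lines are medians and bars the middle 50% of genes from limma, and open points are the medians of the 4 pairings of a Y1cKO and a Y1CTL replicate; TE medians are -0.21 and -0.18, and the points of both kinds of gene overlap in every measure.

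All 42 long-leader genes with a lower TE had a positive RNA-seq change, with a median of 0.66, against a median Ribo-seq change of -0.14. The Ribo-seq change was below 0 in 36 of the 42. The RNA-seq change was above 0 in 414 of all 586 long-leader genes and in 8356 of 12435 genes tested. By construction a gene with more RNA and the same number of footprints has a lower TE, so genes chosen by a lower TE tend to have such changes. The same count over all genes with a lower TE was not made, and the cause was not tested. Adcy5, an adenylyl cyclase, was at 12.5, 8.77, 31.7 and 24.4 RPKM in RNA-seq and at 5.52, 6.56, 6.72 and 5.73 RPKM in Ribo-seq. Both Y1cKO RNA-seq values lay above both Y1CTL values, and the Ribo-seq values overlapped. Its TE change was -1.33 ± 0.32 (SE), with an adjusted p from limma of 0.563. Zfp949, a zinc finger protein, was at 2.62, 2.32, 6.42 and 6.54 RPKM in RNA-seq and at 1.80 to 2.51 RPKM in Ribo-seq, with a TE change of -1.25 ± 0.34. Of these genes Adcy5 overlaps a long non-coding gene.

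The largest negative TE change was that of Zfp503, a zinc finger repressor, at -1.61 ± 0.55 (SE). It was at 7.49, 2.91, 13.3 and 10.1 RPKM in RNA-seq and at 10.2, 14.9, 9.84 and 8.66 RPKM in Ribo-seq. Without Y1CTL replicate 2, the low one in RNA-seq, its TE change was -0.74. Alcam, a cell adhesion molecule, gave -1.28 ± 0.52, and -0.43 without that replicate. Fgfr1, a receptor of fibroblast growth factors, Spry1, an inhibitor of receptor tyrosine kinase signaling, and Gab1, an adaptor of such receptors, were among the 42 as well, with TE changes of -0.88, -0.81 and -0.89, and were named after their values were seen. Zfp503, Alcam, Fgfr1 and Gab1 each overlap another gene.

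The 5 genes with a higher TE all had a negative RNA-seq change, as had 172 of all 586 long-leader genes and 4079 of 12435 genes tested. By construction less RNA with the same number of footprints gives a higher TE. H1f3 was at 4.83, 3.85, 1.38 and 1.26 RPKM in RNA-seq and at 156.8, 102.6, 120.7 and 158.8 RPKM in Ribo-seq, with a TE change of 1.53 ± 0.34 (SE). Its RNA-seq values did not overlap between genotypes, and its Ribo-seq values did. The limit of the RNA-seq values of H1f3 given above holds here too. Rap1gap, which inactivates the GTPase Rap1, gave 1.72 ± 0.58, and 0.89 without Y1CTL replicate 2. Fars2, the mitochondrial phenylalanyl-tRNA synthetase, was at 26.3, 22.0, 14.6 and 16.2 RPKM in RNA-seq and at 38.8 to 43.7 RPKM in Ribo-seq, with a TE change of 0.73 ± 0.21. Kbtbd11 gave 0.56 ± 0.24 and Pcid2, a subunit of an mRNA export complex, 0.56. Each of the 5 but H1f3 overlaps another gene.

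Ribo-seq values alone differed little between genotypes. At an unadjusted p under 0.05, 6 of 561 long-leader genes were higher in Y1cKO (1.07%) and 7 lower (1.25%), against 1.62% and 1.13% of all genes tested. None passed the adjusted p from limma (0% called over all genes) or from voom. Voom gave 11 at an unadjusted p under 0.05 (1.96%, against 2.33% of all genes tested). Leaving out Y1CTL replicate 1 turned the 13 into 58 (10.4%, against 11.2% of all genes tested), leaving out Y1CTL replicate 2 into 31 (5.54%, against 7.29%) and leaving out Y1cKO replicate 1 into 5 (0.891%, against 1.29%). Slc2a5, a fructose transporter, was at 45.7 and 50.4 RPKM in Y1CTL and at 76.5 and 69.7 RPKM in Y1cKO, a log2 change of 0.60. Its groups did not overlap. Phf7, Tmco4 and Josd1 gave 0.72, 0.56 and 0.55. Slc35a4, described above for its low TE, gave -0.75, with Ribo-seq reads that were few in all libraries. Rnf168, a ubiquitin ligase of the DNA damage response, gave -0.70, Smug1, a uracil DNA glycosylase, -0.67 and Scd2, at 583.9, 594.3, 328.5 and 452.8 RPKM, -0.61.

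RNA-seq values of long-leader genes were higher in Y1cKO more often than lower, as in all genes. At an unadjusted p under 0.05, 61 of 586 were higher (10.4%) and 8 lower (1.37%), against 10.0% and 1.79% of all genes tested, and none passed the adjusted p from limma, which was at least 0.401 (0% called over all genes). Voom gave 81 at an unadjusted p under 0.05 (13.8%, against 10.7% of all genes tested) and 0 at an adjusted one. With scaled libraries the calls were 30 higher and 15 lower (7.68%, against 8.39% of all genes tested). Leaving out Y1CTL replicate 1 turned the 69 into 146 (24.9%, against 26.5% of all genes tested), leaving out Y1cKO replicate 1 into 12 (2.05%, against 2.2%) and leaving out Y1cKO replicate 2 into 25 (4.27%, against 4.38%). Kcna1, a potassium channel, was at 2.51, 1.05, 6.18 and 4.05 RPKM, a log2 change of 1.35, and Ptp4a1 at 2.75, 3.42, 9.20 and 7.75 RPKM, a change of 1.33. Ptp4a1 overlaps another gene in the RefSeq table and had no Ribo-seq read. B3gnt2, which extends lactosamine chains, and Slc4a4, a bicarbonate transporter, gave -0.80 and -0.73.

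Of the long-leader genes in the lists, none had an unadjusted p under 0.05 for the TE change. The median change was -0.18 over the 8 genes with textbook leaders, -0.52 over 5 of insulin signaling, -0.64 over 3 adipocyte transcription factors, -0.46 over 8 of the BMP and TGF-beta list, -0.21 over 5 chromatin regulators and 0.02 over 5 ubiquitin ligases, beside -0.17 over all genes. The lowest p among those named was that of Ltbp3, with a TE change of -0.62 ± 0.29 (SE), RNA-seq values of 53.0, 43.4, 78.7 and 60.2 RPKM and Ribo-seq values of 34.0, 44.0, 33.5 and 38.4 RPKM. Both Y1cKO RNA-seq values were above both Y1CTL values, and the Ribo-seq values overlapped. Pik3r1 had a TE change of -0.69 ± 0.58, with RNA-seq values of 80.1, 52.7, 131.8 and 74.3 RPKM that overlapped between genotypes.

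Among the shorter leaders the median TE change was lower in each longer class, and among the long ones it was not. It was -0.15 for leaders under 100 bases, -0.18 for 100 to under 200 bases, -0.19 for 200 to under 400 bases, -0.25 for 400 to under 600 bases, -0.21, -0.22 and -0.19 in the classes from 600 to under 1500 bases and -0.15 for 1500 bases or more. No pairings were computed for the classes, so their order is a description without a spread. Over all shorter-leader genes the median TE change ran from -0.27 to -0.09 between pairings. RNA-seq changes of these classes had medians of 0.14 to 0.21 and Ribo-seq changes of -0.03 to 0.03. In the groups by coding length, the TE change of long-leader genes was -0.05, -0.16, -0.24 and -0.26 from the shortest to the longest, and that of the others -0.08, -0.14, -0.21 and -0.26. Long-leader genes thus had about the same median change as other genes of their coding length, and the differences of 0.03 or less were smaller than the spread between pairings.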

How the data were processed

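The authors mapped reads with HISAT2 2.2.1 to mm8, per the submitters' processing notes, and the deposited table of each library gives RPKM with the coding start, coding end and length of 1 transcript per gene. Not given in the sources used here are the counter, the annotation release, the strandedness and whether footprints in leaders were counted. The coding start is counted from 0 and equals the leader length. Each value equals a whole number of reads to within 0.01 read, so reads were computed back.

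Values were set to log2(RPKM + 0.5) and fitted in R 4.3.3 by limma 3.58.1 with its trend option, for genes averaging 0.5 RPKM or more. This scale understates changes of low genes. TE was the interaction of assay and genotype over 8 libraries with no block, and Benjamini-Hochberg adjustment ran over all genes tested. The fits were tested on simulated data. Genes that a Ribo-seq table lacks were set to 0.

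Members and lists were chosen with earlier results of these data known, and lists were written by hand. Genes were named by leader length, RNA-seq level, TE, size of change and list membership, besides those marked as named after their values were seen, Pcid2 and, of the lists, Ppp1r15a, Pdgfb, Bcl2, Acvr1, Acvr2a, Smad6, Smad7, Tbc1d1 and Setd1a, which were also added then. Overlaps come from RefSeq's GRCm38.p6 gene table, which is another build, so that no coordinates are given. The RefSeq promoter table held 449 of 586 long-leader genes (76.6%), under the minimum of 80%, so that a check of base composition was void. No sequences of leaders were read, since no genome of the build was used here. Some items are not reported here. Replicate numbers follow the labels. Tails of TE without unread genes, and TE with crossed numbers, were added after the data were seen. Other steps used Python 3.11.15, numpy 2.4.6, pandas 2.3.3, scipy 1.17.1 and matplotlib 3.10.9.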

Additional observations from a re-analysis of the deposited data

How the results depend on the processing

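The lower TE of long-leader genes kept its direction under all alternatives run, and its value moved by more than the spread between library pairs under 8. It was -0.92 with a leader limit of 1000 bases, -0.89 with an RNA-seq RPKM of at least 5, -0.56 with no RPKM minimum beyond the mean, -0.43 and -0.54 as the mean over 4 equal groups of coding length and of the length after the coding end, -0.99 and -0.93 with both assays per coding or per transcript length, and -0.75 without overlapping genes. Leaving out 1 replicate gave -0.71 to -0.61.

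The difference in TE change was -0.06 to 0.00 and that in Ribo-seq change -0.04 to 0.02 without 1 replicate. The difference in RNA-seq change, 0.00, was 0.02 with a limit of 400 bases, 0.00 (a move within rounding) at an RPKM of at least 5 and 0.00 to 0.03 without 1 replicate.

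The counts below are of long-leader genes at an unadjusted p under 0.05. Shares over all genes are not given for other limits, no filter and the sets without overlaps, so those counts are not read further. For TE (47) they were 138 with a limit of 400 bases, 15 with 1000 bases, 25 at an RPKM of at least 5, 28 with scaled libraries, 21 without overlapping genes and 6 to 153 without 1 replicate. For Ribo-seq (13) they were 35, 2 and 6 under the first 3 of these, 22 with no filter and 5 to 58 without 1 replicate. For RNA-seq (69) they were 200, 28, 39, 45 with scaled libraries, 32 without overlapping genes and 12 to 146 without 1 replicate. Other limits and the sets without overlaps also change how many genes are in the set, and the cause of the other moves was not tested. With the replicate block the TE count was 21, and with crossed numbers, chosen after the data were seen like the alternatives without overlapping genes and without olfactory receptors, it was 58. The replicate block moved no other count by over 1.5 times. No long-leader gene passed the adjusted p except without Y1CTL replicate 1, where 37 did for TE (6.61%, against 8.14% of all genes tested), 20 for RNA-seq (3.41%, against 5.33%) and 1 for Ribo-seq (0.179%, against 0.406%).

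The Y1CTL RNA-seq libraries, with 3958284 and 4963613 reads, were the shallowest. Median reads per long-leader gene were 108.5 to 490.5 in RNA-seq and 118.0 to 177.5 in Ribo-seq.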
